A study of Mus musculus with 6 samples.

Results

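A set of 96 array probes separated wild-type mouse embryonic fibroblasts from Trex1-deficient and from Sting and Trex1 double-deficient fibroblasts by at least 2-fold on every array, and moved little when DNA was delivered to the cells. They were chosen from 45281 probes, of which 14679 were detected on both wild-type arrays or on all 4 knockout arrays and were therefore tested. The log2 signal used throughout is the log2 of a probe's intensity after subtraction of its array's median over all probes, with values under 16 set to 16, so that the lowest possible log2 signal is 4.00. A probe was a member when both wild-type log2 signals lay at least 1 above, or at least 1 below, each of the 4 knockout log2 signals, and when DNA changed the log2 signal by less than 0.7 in each of the 3 genotypes. These values chose the members, so the differences between wild type and knockouts below are a description and carry no test.

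The 6 groups, of 1 Illumina array each, were Sting and Trex1 double-deficient cells (STKO) given ISD, the double-stranded interferon stimulatory DNA, and mock-treated, Trex1-deficient cells (TKO) with ISD and mock-treated, and wild-type cells (WT) with ISD and mock-treated. All were fibroblast cultures from e13.5 embryos of the mixed strain C57BL6/129Sv, and ISD was transfected at 4 µg/ml for 6 h. The number of embryos behind a culture is not given in the sources used here, so genotype and culture cannot be told apart, and the 2 arrays of a genotype differ in treatment and are not replicates. The groups follow the sample titles. The genotype field of the labels gives Sting +/+ for both STKO arrays and for TKO ISD, and Sting -/- for TKO mock and both WT arrays, which goes against the titles for Sting.

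TREX1 is an exonuclease that removes DNA from the cytosol, and cells without it accumulate DNA that the cGAS and STING pathway senses. STING, the adaptor of that pathway, switches on type I interferon and with it a large set of interferon-stimulated genes. In that pathway STING acts downstream of TREX1, so genes it controls are known to differ between cells lacking TREX1 alone and cells lacking both, whereas the rule used here asks for both knockouts on the same side of wild type.

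Detected probes numbered between 14488 and 16177 per array and the median intensity ran between 76.8 and 85.3. The Sting1 probe, whose gene the titles call deleted in STKO, had log2 signals of 4.82 and 5.06 on the STKO ISD and mock arrays, 7.61 and 6.82 on the TKO ISD and mock arrays, and 8.70 and 7.20 on the WT ISD and mock arrays, so it was lowest on the arrays titled STKO. The 2 tested Trex1 probes were lower on each knockout array than on the WT array of the same treatment, but still had 8.20 and 7.44 (STKO ISD and mock), 9.59 and 9.34 (TKO ISD and mock), against 12.62 and 9.98 (WT ISD and mock), for the brighter probe. Whether that probe lies in the deleted part of Trex1 is not given in the sources used here. Fibroblast markers were tested, that is, detected as above, for 10 of the 11 genes with a probe. Markers of blood cells and macrophages were bright as well: 8 of their 10 probes, in all 4 genes, were tested, and one probe of Adgre1, a macrophage surface receptor, had 13.47 and 13.44 (STKO), 13.35 and 13.78 (TKO) and 13.84 and 13.90 (WT). No epithelial, endothelial or skeletal muscle marker probe was detected widely enough to be tested.

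Of the 96 members, 44 probes were higher in the knockouts (0.300 percent of the probes tested) and 52 were lower (0.354 percent). An annotation of the array names 35 of the higher probes, in 34 genes, and 49 of the lower ones, in 45 genes, which leaves 12 unnamed. The knockouts minus WT difference of log2 signal had a median of 1.90 in the higher members (range 1.15 to 10.98) and of -1.79 in the lower members (range -6.32 to -1.11), against 0.08 over all probes tested. On the dim side, 15 of the higher members were not detected on either WT array and 27 of the lower members on none of the 4 knockout arrays. For these a fold is given as a lower bound against the dimmest signal that still counted as detected. The other 29 higher members had measured folds between 2.23 and 64.6 (median 3.68), and the other 25 lower members between 2.38 and 79.6 (median 4.34). All 96 kept a complete separation of WT from the knockouts under background correction with the neqc method, under quantile normalization, without background subtraction, with a floor of 1, and in the authors' own normalized values. The gap that chose the members on these same arrays largely fixes this. By the full rule, 15 of the 44 higher and 16 of the 52 lower members passed again in the authors' values. Without background subtraction 15 and 13 did. With a floor of 50, 36 of the higher and 36 of the lower members still separated.

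**Figure D1:**
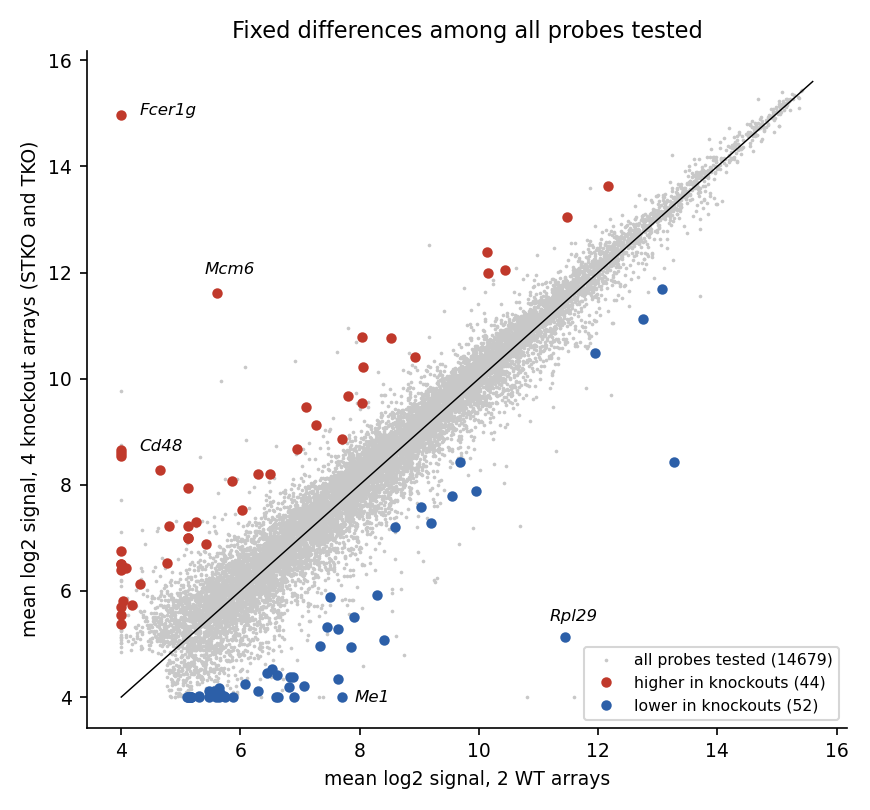
Mean log2 signal of each of the 14679 probes tested on the 2 WT arrays (horizontal) and on the 4 STKO and TKO arrays (vertical), with members higher in the knockouts in red, members lower in blue and other probes in grey. The line marks equal signal, and the members on the axes' lowest value of 4 are probes at the floor on one side, such as Fcer1g in WT and Me1 in the knockouts.

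The widest separation of all belonged to Fcer1g, which encodes the signalling gamma chain shared by the IgE receptor and several IgG receptors. Its probe had 14.93 and 14.97 on the STKO ISD and mock arrays and 14.92 and 15.09 on the TKO ISD and mock arrays, against 4.00 on both WT arrays, where it was not detected. The knockouts were at least 1243-fold higher. No other probe of Fcer1g is in the table, so the finding rests on 1 probe. Cd48, a surface receptor of blood cells, lies on the same stretch of chromosome 1 and had 9.05 and 8.57 in STKO ISD and mock and 8.33 and 8.23 in TKO ISD and mock, against 4.00 on both WT arrays, at least 14.4-fold higher in the knockouts. These 2 genes, and Parp3 from the lower members, sit in 2 chromosome segments described further on, around Fcer1g and around Trex1. For that reason the sequences before a RefSeq start of each gene are shown. They are 250 bases from RefSeq (GRCm38.p6), 5′ to 3′ on the gene's strand, at chr1:171234350-171234599 (minus strand) for Fcer1g, chr1:171681742-171681991 (plus strand) for Cd48 and chr9:106476950-106477199 (minus strand) for Parp3, and capitals mark a match to one of 5 motifs named with the promoter counts below.
Fcer1g: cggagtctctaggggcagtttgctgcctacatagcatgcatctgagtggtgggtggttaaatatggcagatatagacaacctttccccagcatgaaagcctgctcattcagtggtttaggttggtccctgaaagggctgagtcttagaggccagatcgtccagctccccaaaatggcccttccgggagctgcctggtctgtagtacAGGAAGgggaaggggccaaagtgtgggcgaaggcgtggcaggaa
Cd48: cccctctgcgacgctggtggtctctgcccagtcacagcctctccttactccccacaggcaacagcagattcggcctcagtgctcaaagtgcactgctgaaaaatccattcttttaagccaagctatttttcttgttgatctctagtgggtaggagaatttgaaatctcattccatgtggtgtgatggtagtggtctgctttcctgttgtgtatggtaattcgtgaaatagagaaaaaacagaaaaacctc
Parp3: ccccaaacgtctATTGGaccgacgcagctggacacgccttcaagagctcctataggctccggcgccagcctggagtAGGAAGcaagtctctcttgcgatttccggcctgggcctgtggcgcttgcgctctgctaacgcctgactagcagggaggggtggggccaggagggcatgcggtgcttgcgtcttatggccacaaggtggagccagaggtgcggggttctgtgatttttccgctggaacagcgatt
The Fcer1g window held 1 match, to the ETS core, the Parp3 window held 2, to the CCAAT box (read on the opposite strand) and the ETS core, and the Cd48 window held none of the 5 motifs. By the RefSeq gene coordinates Cd48 spans chr1:171681245-171705258, so its window lies inside that span and not before the outermost start.

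Further members higher in the knockouts encode proteins of blood cells, listed here after their values were seen. Itgb7, an integrin subunit of lymphocytes, had 7.73 and 7.64 (STKO ISD and mock) and 8.23 and 8.65 (TKO ISD and mock), against 5.56 and 6.17 (WT ISD and mock), 4.58-fold. Map4k1, a kinase of blood cell signalling, had 5.70, 5.62, 5.71 and 6.22 on the STKO ISD, STKO mock, TKO ISD and TKO mock arrays, against 4.00 and 4.04 on WT ISD and mock, at least 2.16-fold. S100a8, a calcium-binding protein of neutrophils and macrophages, had 9.06 and 9.34 in STKO ISD and mock and 10.06 and 10.23 in TKO ISD and mock, against 7.87 and 7.74 in WT ISD and mock, 3.65-fold. In each of these the dimmest knockout array lay above the brightest WT array, which the rule requires of every higher member. Il7r, the receptor for interleukin 7, was at least 2.72-fold higher by its member probe, and its other 2 tested probes, which missed the rule, differed by 1.72 and 1.63 on the log2 scale with no overlap of the groups. Ccl6, a chemokine of myeloid cells, was 2.74-fold higher, and Gpnmb, a transmembrane glycoprotein abundant in macrophages, 2.97-fold. Fcgr3, an IgG receptor described with chromosome 1 below, was a lower member and went the other way, 3.06-fold.

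For the defining markers of blood cells the values were as follows. None of the 8 tested blood and macrophage marker probes was a member, which at 0.654 percent of all named probes says little for a list of this size. Their median difference of log2 signal between knockouts and WT was -0.27 (0.08 over all probes tested), and their summed signal was 33216 and 30132 in STKO ISD and mock and 26249 and 36003 in TKO ISD and mock, against 34476 and 39867 in WT ISD and mock. The ranges of the summed signal overlap between knockouts and WT. Itgam, an integrin subunit of myeloid cells, separated the groups by less than the rule asks, with 6.79 and 6.82 (STKO ISD and mock) and 6.61 and 7.06 (TKO ISD and mock), against 5.91 and 6.00 (WT ISD and mock), a difference of 0.87. It was the only one of the 8 probes that was higher in the knockouts. All the others, of Adgre1, Csf1r and Ptprc, were lower, by values between -0.44 and -0.02. A part of blood cells in the higher members was not tested beyond these values, and in cultured cells fewer cells of a type and less RNA per cell cannot be told apart.

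Some other higher members encode enzymes that act on matrix or protein, grouped here after their values were seen. Mmp12, the macrophage elastase, had 12.35 and 11.94 (STKO ISD and mock) and 12.45 and 12.82 (TKO ISD and mock), against 9.91 and 10.37 (WT ISD and mock), 4.75-fold. Mmp3, stromelysin 1, neighbours Mmp12 on chromosome 9 and had 2 member probes. The one with the wider gap read 10.33 and 10.42 in STKO ISD and mock and 8.36 and 8.75 in TKO ISD and mock, against 7.12 and 7.09 in WT ISD and mock, so STKO lay highest, TKO between and WT lowest. A further Mmp3 probe, no member, showed the same order, with 12.02 and 12.16 in STKO, 10.25 and 10.70 in TKO and 9.15 and 9.70 in WT (ISD and mock each). Ctsl, a lysosomal protease, was 3.68-fold higher. Chst11, a sulfotransferase of chondroitin chains, was at least 1.99-fold higher.

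Collagen I is built from 2 chains, and their probes differed in opposite directions. Col1a2 had 10.84 and 10.52 (STKO ISD and mock) and 10.13 and 10.13 (TKO ISD and mock), against 8.75 and 9.12 (WT ISD and mock), 2.77-fold higher in the knockouts. Col1a1 had 10.90 and 10.55 (STKO ISD and mock) and 10.22 and 10.27 (TKO ISD and mock), against 11.92 and 11.98 (WT ISD and mock), and was 2.76-fold lower. The list of fibroblast markers, which contains both, had a median difference of -0.38 over its 15 tested probes. In it, both Dcn probes (decorin, a small matrix proteoglycan) were higher by 1.09 and 0.83 and all 3 Fn1 probes (fibronectin) lower by values between -1.44 and -0.90, though none of these was a member. Over the wider list of matrix and remodelling genes, 2 of 52 tested probes were higher members, both of Mmp3, and 1 was a lower member, Timp3, with a list median of -0.79. Over all probes tested, 0.300 percent were higher and 0.354 percent lower members. The list was chosen with these data known, and its members are given as a count only.

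Among genes of general cell functions, Mcm6, a subunit of the replicative helicase, had 12.12 and 11.74 (STKO ISD and mock) and 11.07 and 11.54 (TKO ISD and mock), against 5.27 and 5.93 (WT ISD and mock), 64.6-fold higher. Its other 3 tested probes had much smaller knockouts minus WT differences, 0.62 and 0.81 without overlap of the groups and 0.25 with overlap. Taf6, a subunit of the general transcription factor TFIID, had 8.44 and 8.40 (STKO ISD and mock) and 7.99 and 8.26 (TKO ISD and mock), against 4.59 and 4.72 (WT ISD and mock), 12.3-fold, and its second probe differed by 0.16 with overlapping groups. The size of the difference at the member probes of Mcm6 and Taf6 was thus not shared by the other tested probes of the same gene. Lars2, the mitochondrial leucyl-tRNA synthetase, had 8.14 and 7.97 (STKO ISD and mock) and 7.73 and 7.95 (TKO ISD and mock), against 4.79 and 5.44 (WT ISD and mock), 7.12-fold. Of 2 WT arrays, 1 detected Taf6 and 1 detected Lars2. Srpr, a subunit of the signal recognition particle receptor, was 2.23-fold higher, the smallest measured fold among the higher members.

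Further higher members have varied functions. Prkag2, a regulatory subunit of the AMP-activated kinase, was at least 3.49-fold higher, and Serhl, a hydrolase-like gene, at least 3.53-fold, while the other 2 tested Serhl probes differed by 0.80 and 0.26 with overlapping groups. Anxa4, a calcium-dependent membrane-binding protein, read 10.65 and 10.50 (STKO ISD and mock) and 10.99 and 10.94 (TKO ISD and mock), against 8.70 and 8.34 (WT ISD and mock), but its second tested probe differed by 0.16 with overlapping groups. Npy, the precursor of neuropeptide Y, varied little among the arrays of each side, with 12.07 and 11.98 (STKO ISD and mock) and 12.02 and 12.10 (TKO ISD and mock), against 10.38 and 10.51 (WT ISD and mock), 3.03-fold. Rasd2, a small GTPase, was 5.34-fold higher. Mgll, the lipase that degrades the endocannabinoid 2-arachidonoylglycerol, was 3.77-fold higher and its other 2 tested probes differed by 2.79 and 1.64, without overlap. Prl2c3 belongs to the proliferin genes, whose near-identical copies a probe may not tell apart, and was 3.32-fold higher. The member probe of Cald1 (caldesmon, an actin-binding protein) was at least 3.25-fold higher, whereas 3 further tested Cald1 probes were lower in the knockouts by values between -0.86 and -0.68. The member probe of Zbtb18, a transcriptional repressor, was 4.31-fold higher, and of its other 3 tested probes 1 differed by -0.71 and 2 by 1.00 and 1.30.

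The higher members not yet named include Lipn, an epidermal lipase (4.14-fold), Tnfsfm13, a read-through of 2 tumour necrosis factor ligand genes (3.55-fold), Eef1a2, a translation elongation factor (3.29-fold), Gm14461 (3.68-fold) and Ccdc144b (3.36-fold). Slc17a9, a vesicular nucleotide transporter, was at least 2.04-fold higher and Sec23ip, a partner of the COPII coat, at least 1.61-fold. Among the 9 unnamed higher probes, the one with the widest gap was at least 15.5-fold higher.

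**Figure D2:**
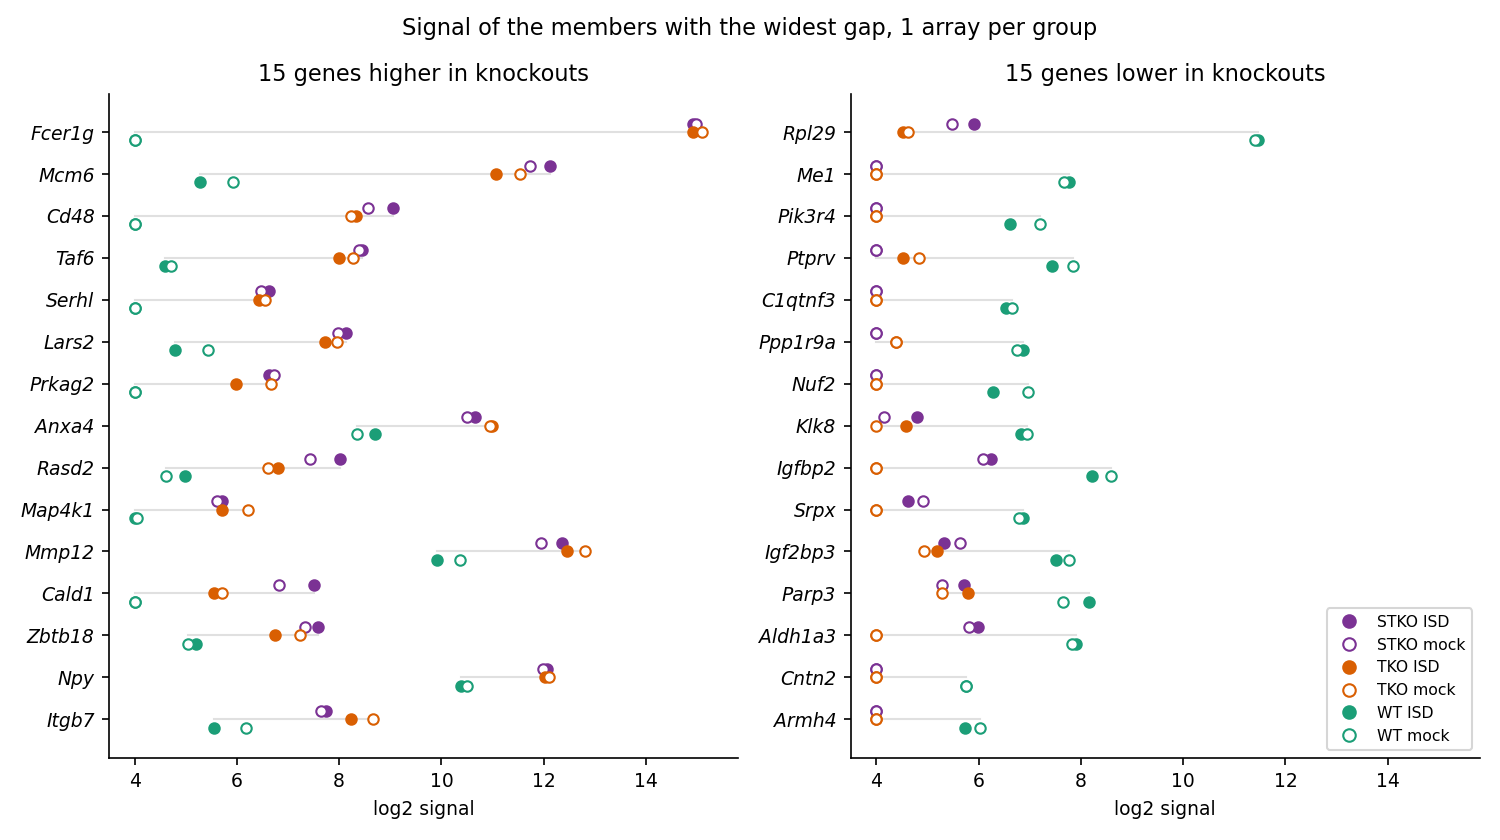
Log2 signal of the 15 named genes with the widest gap in each direction (1 probe a gene) on the 6 arrays, with STKO in purple, TKO in orange and WT in green, ISD filled and mock open. Every WT point lies at least 1 away from every knockout point of the same gene, as the rule requires, and 4 is the floor.

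On the lower side the widest gap was that of Rpl29, a protein of the large ribosomal subunit. One probe had 5.90 and 5.47 (STKO ISD and mock) and 4.51 and 4.62 (TKO ISD and mock), against 11.47 and 11.41 (WT ISD and mock), 79.6-fold lower in the knockouts, where 3 of the 4 arrays detected it. The second Rpl29 probe was far less different, with 11.88 and 11.97 (STKO ISD and mock) and 11.33 and 11.58 (TKO ISD and mock), against 12.98 and 13.15 (WT ISD and mock), 2.60-fold lower. Transcripts of Rpl29 and of its pseudogenes may share either probe. Pik3r4, the regulatory subunit of the class III phosphoinositide kinase, was at the floor of 4.00 on all 4 knockout arrays, against 6.60 and 7.20 (WT ISD and mock), at least 4.79-fold lower. Parp3, an ADP-ribosyltransferase of DNA repair, had 5.72 and 5.27 (STKO ISD and mock) and 5.79 and 5.28 (TKO ISD and mock), against 8.16 and 7.64 (WT ISD and mock), 5.23-fold lower. Sema3f, a secreted guidance cue, was at the floor in the knockouts and at 5.55 and 5.72 in WT ISD and mock, and a second Sema3f probe, which missed the rule, differed by -2.56.

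These 4 genes lie together on chromosome 9, beside the deleted gene. Counted on GRCm38.p6 from the start of Trex1, Pik3r4 is at -3.41 Mb, Rpl29 at -2.63 Mb, Parp3 at -2.59 Mb and Sema3f at -1.38 Mb. Within 5 Mb of Trex1, a window narrower than the planned 20 Mb, 5 of 110 tested named probes were members (4.55 percent). They come from the 4 genes above, and all of them were lower in the knockouts. Over all chromosomes 84 of 12846 were members (0.654 percent). Within 20 Mb the count was 6 of 251 (2.39 percent), the sixth being Lars2 at 14.31 Mb, which was higher. Wdr82 and Atp2c1, at -2.89 and -3.65 Mb, were lower by -3.46 and -3.47 but missed the rule because their signal moved with ISD by 0.7 or more in a genotype. Around Sting1 none of 145 tested probes within 20 Mb was a member. By the titles TKO lacks Trex1 only, and the rule asks for both knockouts on the same side of WT. A difference found in STKO alone could therefore not make a member. At 0.654 percent of named probes, a count of none in a window of this size also says little. The labels give 1 mixed strain for all arrays, and which parental strain each culture carried at these places was not analysed here.

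Chromosome 9 as a whole held 12 of 700 tested named probes (1.71 percent), chromosome 1 held 11 of 713 (1.54 percent), chromosome 6 held 10 of 649 (1.54 percent) and chromosome 15 held 6 of 510 (1.18 percent). On chromosome 1 the members gathered around Fcer1g, in a window chosen after its values were seen. Within 5 Mb of Fcer1g, 5 of 71 tested named probes were members (7.04 percent), within 10 Mb 6 of 149 (4.03 percent) and within 20 Mb 6 of 244 (2.46 percent), with Fcer1g itself, which chose the window, among them. Unlike the genes beside Trex1, they ran in both directions. Nuf2, a kinetochore protein, at -1.73 Mb, and Fcgr3, a low-affinity IgG receptor, at -0.18 Mb, were lower, whereas Cd48 at 0.45 Mb, Dusp23, a small phosphatase, at 1.40 Mb and Zbtb18 at 6.21 Mb were higher. Fcgr3, which signals through the chain that Fcer1g encodes, had 11.20 and 11.09 (STKO ISD and mock) and 11.18 and 11.06 (TKO ISD and mock), against 12.85 and 12.64 (WT ISD and mock), 3.06-fold lower. The receptor and its partner chain therefore differed in opposite directions between the same arrays. In the same stretch, Adamts4 at 0.02 Mb, Rgs4 at -1.49 Mb and both Ifi202b probes at 2.73 Mb separated the genotypes but moved with ISD. Members also lay close together elsewhere: Gpnmb, Igf2bp3 and Npy on chromosome 6, and Col9a3, Tcfl5, Slc17a9 and Eef1a2 on chromosome 2. No window was counted at those places.

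**Figure D3:**
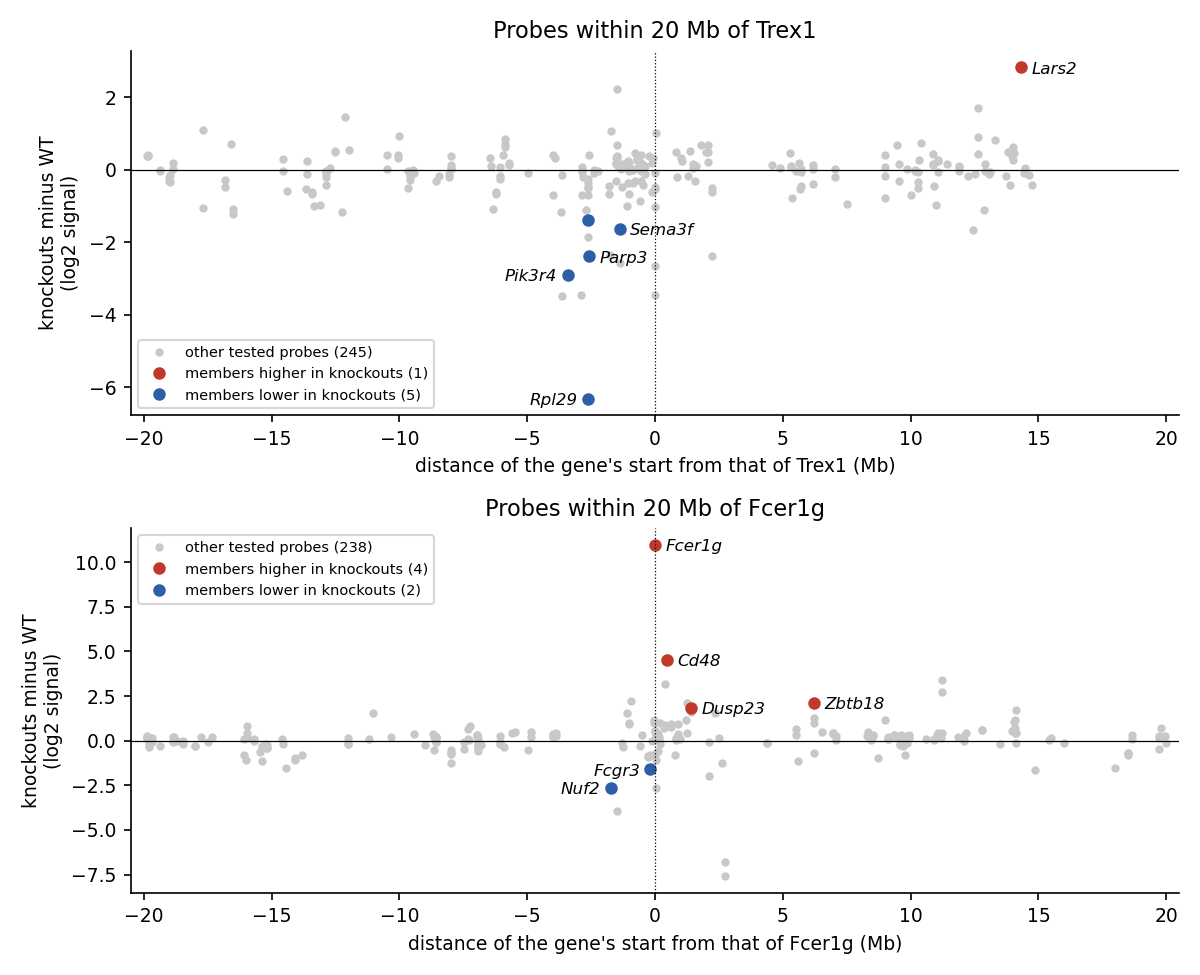
Knockouts minus WT difference of log2 signal for the tested probes within 20 Mb of Trex1 on chromosome 9 (top) and of Fcer1g on chromosome 1 (bottom), by the distance between gene starts in Mb. Members higher in the knockouts are red and members lower are blue, and the 5 members within 5 Mb of Trex1 all lie below 0, while those around Fcer1g lie on both sides.

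Genes of growth factor signalling stood among the lower members. Igfbp2, a secreted binding protein of insulin-like growth factors, had 6.25 and 6.09 (STKO ISD and mock) and the floor of 4.00 on both TKO arrays, against 8.21 and 8.60 (WT ISD and mock), 9.99-fold lower. A second Igfbp2 probe differed by -3.06 without overlap. Igfbp3, of the same family, was 4.57-fold lower, with 1 of 4 knockout arrays detecting it. Igf2bp3, an RNA-binding protein that takes its name from the Igf2 transcript, had 3 member probes, 2 of them 5.16-fold and 5.14-fold lower and the third at the floor on all knockout arrays. Nrg1, neuregulin 1, was at least 2.69-fold lower, and Ngfr, the low-affinity neurotrophin receptor, at least 1.77-fold.

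Axon guidance and neural adhesion genes also stood on the lower side, a grouping made after the values were seen. Beside Sema3f, Sema3a, another class 3 semaphorin, was at the floor on all knockout arrays and at 5.12 and 5.22 (WT ISD and mock). Ncam1, the neural cell adhesion molecule, had 7.27 and 6.75 (STKO ISD and mock) and 7.52 and 7.58 (TKO ISD and mock), against 9.02 and 9.38 (WT ISD and mock), 3.79-fold lower, and its second tested probe differed by -2.25. A further Ncam1 probe, detected on 4 arrays but not widely enough to be tested, differed by -0.24 with overlapping groups. Cntn2, a contactin of axons, and Nrcam, an adhesion molecule related to L1, were at the floor in the knockouts, with WT signals of 5.74 and 5.75 for Cntn2 and 5.21 and 5.01 for Nrcam (ISD and mock each). Piezo2, a mechanically gated ion channel, was 4.34-fold lower. Ppp1r9a, a scaffold of synapses also called neurabin, was at least 4.48-fold lower. Most of these genes were dim even in WT, so that only bounds can be given.

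Metabolic enzymes included the lower member with the largest bound. Me1, the cytosolic malic enzyme that supplies NADPH, was at the floor of 4.00 on all 4 knockout arrays, against 7.76 and 7.66 (WT ISD and mock), at least 8.38-fold lower. It lies at -22.48 Mb from Trex1. Aldh1a3, which makes retinoic acid, had 5.98 and 5.81 (STKO ISD and mock) and 4.00 on both TKO arrays, against 7.90 and 7.83 (WT ISD and mock), 7.54-fold lower, and was the 1 member among 32 tested probes of glutathione and xenobiotic genes. Crabp2, a carrier of retinoic acid, was at least 2.11-fold lower. Aldh1l2, a mitochondrial enzyme of folate metabolism, was 2.72-fold lower and its second probe differed by -1.48. Timmdc1, an assembly factor of respiratory complex I, was 4.20-fold lower. Selenbp2 was at the floor in the knockouts and at 5.01 and 5.24 in WT ISD and mock, and its near-identical neighbour Selenbp1 may share the probe.

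The remaining lower members of known function belong to the matrix, to patterning and to cell division. Timp3, a matrix-bound inhibitor of metalloproteinases, had 8.14 and 7.65 (STKO ISD and mock) and 7.86 and 7.53 (TKO ISD and mock), against 9.52 and 9.58 (WT ISD and mock), 3.38-fold lower. C1qtnf3, a secreted C1q-related protein, was at least 3.87-fold lower, Col9a3, a chain of cartilage collagen IX, at least 3.13-fold, and Srpx, a sushi-repeat protein, 5.44-fold. Cthrc1, a secreted collagen triple helix repeat protein, was 2.62-fold lower and Lrrc15, a leucine-rich repeat membrane protein, 3.06-fold. Shh, the hedgehog ligand, was at the floor in the knockouts and at 5.30 and 5.89 in WT ISD and mock, and Scx, the transcription factor scleraxis of tendon, was at least 1.77-fold lower. Nuf2 was at least 3.95-fold lower and Ncapg2, a condensin II subunit, 2.38-fold, the smallest measured fold on the lower side, and the second tested Ncapg2 probe differed by -0.69 with overlapping groups. Cdsn, corneodesmosin of the skin, had 2 member probes, 5.22-fold and 4.00-fold lower. Klk8, a serine protease, was 5.67-fold lower, with 2 of 4 knockout arrays detecting it, and Ptprv, a receptor-type tyrosine phosphatase, 9.81-fold, with 1 of 4. Armh4 was at the floor in the knockouts and at 5.73 and 6.03 in WT ISD and mock.

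Of the lower members left, Rab38, a small GTPase of pigment organelles, was 3.98-fold lower, with 1 of 4 knockout arrays detecting it. Mmp16, a membrane-type metalloproteinase, was at least 2.02-fold lower, Fjx1, a secreted relative of the fly protein four-jointed, at least 1.98-fold, and Tinagl1, a matricellular protein, at least 1.88-fold. The bounds were smaller for Tcfl5, a transcription factor of the testis (1.58-fold), Ank2, a membrane adaptor (1.58-fold), Ltbp4, which binds latent TGF-beta (1.44-fold), and Shisa4 (1.39-fold). Of the 3 unnamed lower probes, the one with the widest gap had 9.14 and 8.63 (STKO ISD and mock) and 7.78 and 8.15 (TKO ISD and mock), against 13.23 and 13.31 (WT ISD and mock), 28.7-fold lower.

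Other probes of the same genes, which the rule did not choose, are set beside the member probes here. On the higher side 25 further probes in 14 genes were tested: 16 separated WT from the knockouts in the same direction, 1 of them by 2-fold or more and 15 by less, 5 had the same sign with overlapping groups, and 4 had the opposite sign, in Cald1 and Zbtb18. On the lower side 11 further probes in 11 genes were tested, of which 3 separated by 2-fold or more, 7 by less, and 1 had the same sign with overlap. Thus 10 of 14 genes on the higher side and 10 of 11 on the lower side had a second probe that separated in the same direction. The genes had 39 other probes in all on the higher side and 58 on the lower side, and those not detected widely enough to be tested are left out. Among the lower ones, the Sema3f and Ltbp4 probes were detected on the WT arrays only. How many of all tested probes separate the groups without overlap was not counted, so these counts have no background share beside them. The other probes come from the same 6 arrays and are not replicates of the cultures.

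**Figure D4:**
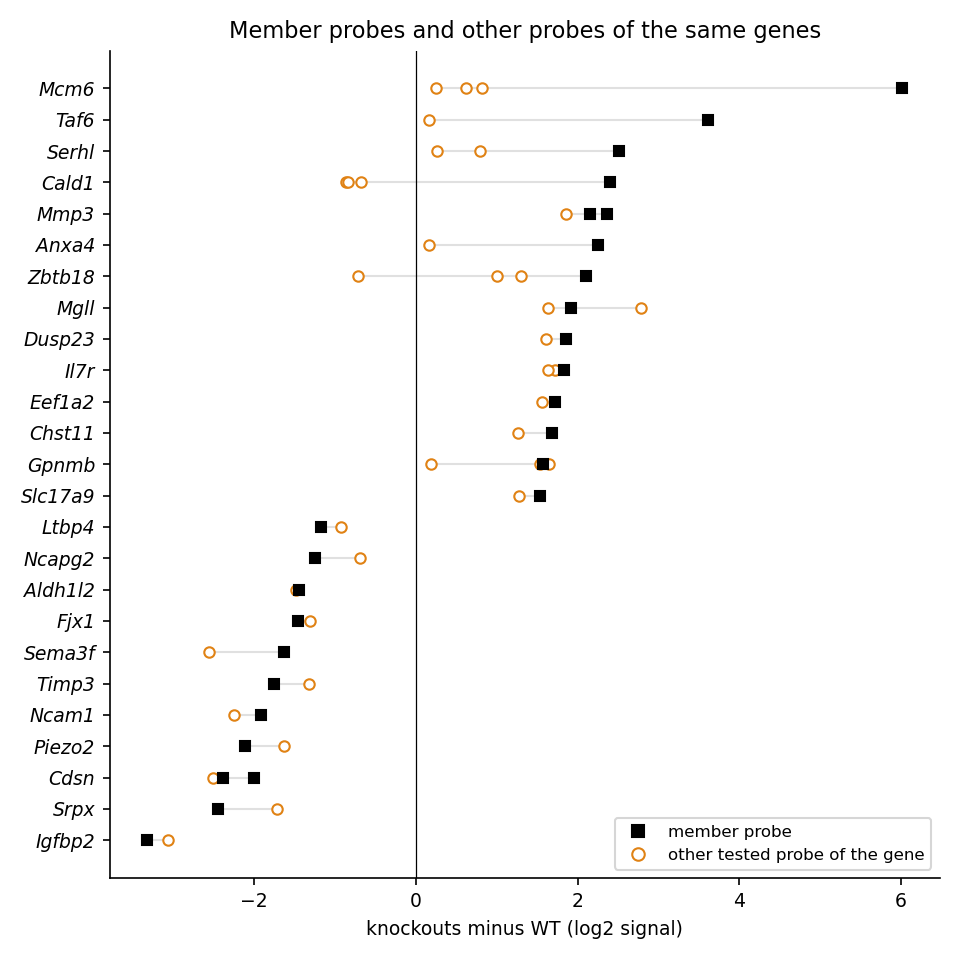
Knockouts minus WT difference of log2 signal for member probes (black squares) and the other tested probes of the same genes (open orange circles), 1 row a gene. The member probe of Mcm6 lies at 6.01 and its other probes between 0.25 and 0.81, the other tested Cald1 probes lie below 0, and the probes of Il7r, Mgll and Igfbp2 lie on the side of their member probe.

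The rule set no limit on the difference between the 2 knockouts, so STKO and TKO can be compared over the members. The median STKO minus TKO difference of log2 signal was 0.11 in the higher members and 0.00 in the lower members, against 0.32 over all probes tested. Of the 52 lower members, 27 were detected on no knockout array and 16 were at the floor on all of them, which makes their difference 0. The lower median is thus set in part by the floor and does not show that the knockouts agree. The shift of all probes depended on the scaling: it was 0.07 after the neqc method, 0.08 after quantile normalization and 0.05 in the authors' normalized values. STKO lay 2-fold or more above TKO in 10 of the 96 members, while 10.3 percent of all probes tested did so, and 2-fold or more below TKO in 1 member, while 3.84 percent of all probes did so. The member share above is near that of all probes. The 10 were split evenly, 5 among the higher members, including both Mmp3 probes, Cald1 and Rasd2, and 5 among the lower ones, including Igfbp2, Aldh1a3, both Cdsn probes and the first Rpl29 probe. In Igfbp2, Aldh1a3 and Cdsn, the STKO arrays lay between TKO at the floor and WT. After the neqc method the counts were 6 above and 3 below, and after quantile normalization 7 above and 5 below. The shares of all probes tested under these scalings were not counted, so nothing about the members is read from these counts.

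**Figure D5:**
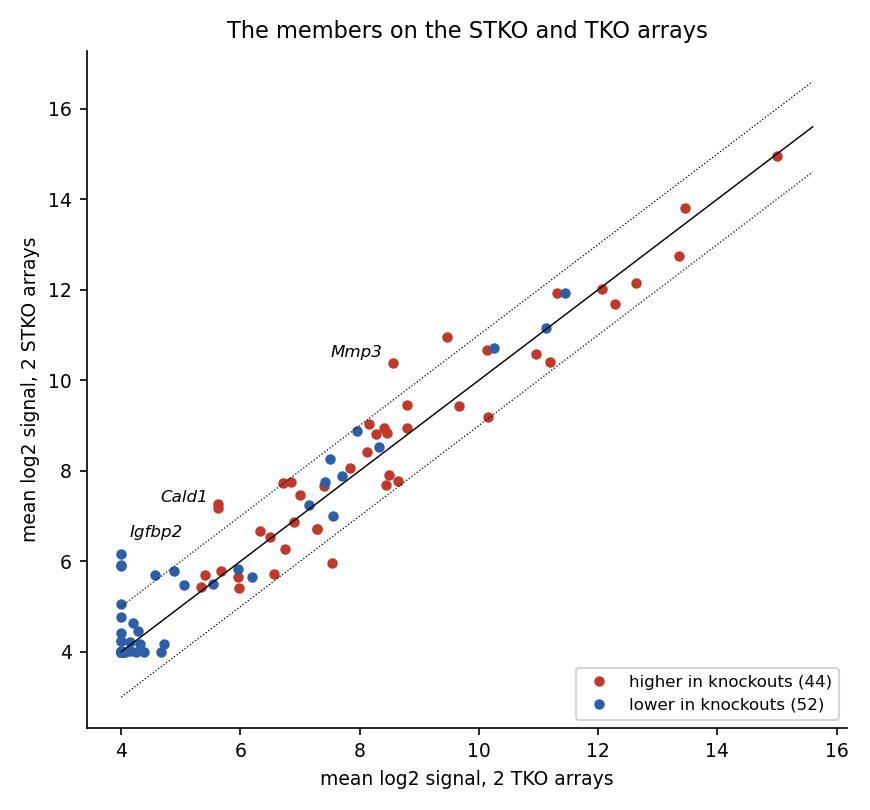
Mean log2 signal of the 96 members on the 2 TKO arrays (horizontal) and on the 2 STKO arrays (vertical), with the solid line at equality and the dotted lines 2-fold to either side. Most members lie between the dotted lines, and Igfbp2, Cald1 and Mmp3 lie above them.

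The limit of 0.7 on the ISD difference was part of the rule, and the values are given for completeness. ISD minus mock had medians of 0.12 (STKO), -0.20 (TKO) and -0.03 (WT) in the higher members and of 0.00, 0.00 and -0.06 in the lower members, against 0.11, -0.32 and -0.27 over all probes tested. A probe at the floor on both arrays of a genotype has a difference of 0 there and always meets the limit. On every array of their dim side, 11 higher and 16 lower members were at the floor. The medians are thus set in part by the floor and do not show that DNA left these probes unchanged. Without that limit, 71 probes (0.484 percent) were higher and 78 (0.531 percent) lower in the knockouts by the genotype gap alone, so that 27 and 26 were left out for moving with ISD. Just inside the gap of 1 lay Col1a2 (1.01) and an unnamed probe (1.02) on the higher side and the second Rpl29 probe (1.01) and Nrcam (1.01) on the lower side. Just outside lay a second Dusp23 probe (0.99) and Mcoln3 (0.98) on the higher side and Hs6st2 (0.99) and a second Timp3 probe (0.99) on the lower side.

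The fixed gene lists placed few members. None of 50 tested probes of interferon-stimulated genes was a member, which the limit on the ISD difference largely fixes, since it removes probes that respond to ISD in any genotype. Likewise no member was found among 15 tested probes of Hox genes and 13 of imprinted genes, while 1 of 28 of cell cycle genes was a member, the Mcm6 probe. Sex-linked probes gave no member, with Eif2s3y on the Y chromosome at 11.08 and 10.71 (STKO ISD and mock), 10.54 and 10.66 (TKO ISD and mock) and 10.62 and 10.61 (WT ISD and mock). Among 10 tested probes of genes known to vary between mouse strains none was a member, but 3 met the genotype gap alone, 2 of Ifi202b (lower) and 1 of Casp4 (higher), and were left out for moving with ISD. By the gap alone, 0.484 percent of all probes tested were higher and 0.531 percent lower. At the overall share of 0.654 percent of named probes, lists of this size would hold less than 1 member each.

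The 250 bases before each RefSeq start were searched on both strands for 5 motifs. The table held 45 windows of 33 higher genes, 39 windows of 28 lower genes and 32851 windows in all, and Rpl29 has no entry. The interferon-stimulated response element (2 copies of GAAA with any 2 bases between them) was in 4.44 percent of the higher windows (2 windows, both of Zbtb18), 2.56 percent of the lower windows (1, of Igf2bp3) and 2.98 percent of all windows. The GAS motif (TTCNNNGAA), the site letters of STAT factors, was in 2.22 and 2.56 percent, against 7.02 percent of all windows. The TATA box (TATAAA) was in 9 of the 45 higher windows and in 7.69 percent of the lower ones, against 12.4 percent of all, and the CCAAT box (CCAAT) in 28.9 and 23.1 percent, against 33.8 percent. The ETS core (AGGAAG) was in 42.2 percent of higher and 48.7 percent of lower windows, against 29.5 percent of all. Windows of 1 gene can overlap, and a match describes letters only.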

How the data were processed

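The authors deposited a table of non-normalized probe intensity values for 6 arrays, with a detection fraction beside each (per the file headers a detection p-value, but the fraction increases with the signal), and a value table whose scale was read from its values as log2 relative to each probe's median over the arrays. That deposited log2 table had column medians of 0 or -0.01, its values followed the intensities in direction and scale, and its normalization between arrays is not given in the sources used here. Array scanner and background step are not given either. The rule was applied in Python 3.11.15 (pandas 2.3.3, numpy 2.4.6) as stated in the report, with detection as a fraction above 0.99. limma 3.58.1 in R 4.3.3 gave the neqc alternative (offset 16). Simulated arrays with large differences planted in bright probes, all set as detected, checked the code of the rule only. They do not resemble the dim members. Groups came from sample titles.

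Of 45281 probes, 34885 had 1 gene in the platform annotation, 18 had several and 10378 had none. Genes were placed through the RefSeq table of GRCm38.p6. The members and 24 gene lists were chosen with earlier results of these data known. Named genes are the 15 of widest gap in each direction (1 probe a gene), members in a list, the Trex1 and Sting1 probes and up to 2 probes beside the threshold. Other members, the role groups and the motifs were chosen after their values were seen. Alternatives changed the background, normalization, floor, detection, gap, ISD limit, arrays and value table. With 1 array a group no p-value was computed, differences are unreplicated, and the number of arrays limits the precision.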

Additional observations from a re-analysis of the deposited data

How the results depend on the processing

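The higher and lower counts of 44 and 52 were 42 and 42 after the neqc method, sharing 27 and 30 probes with the members, and 57 and 74 after quantile normalization, sharing 35 and 42. They were 20 and 16 without background subtraction, 29 and 30 with a floor of 50, 41 and 28 with a floor of 1, and 20 and 21 in the authors' normalized values. A gap of 1.5-fold gave 127 and 127, and a gap of 2 on the log2 scale gave 9 and 10. An ISD limit of 0.35 gave 18 and 32, mock arrays alone gave 171 and 272, and ISD arrays alone gave 386 and 239. The detection threshold changed neither count, and an ISD limit of 1.0 gave 60 and 68. The median difference of 1.90 in the higher members was 1.60 (neqc), 1.26 (no background subtraction), 1.86 (quantile), 2.04 (floor of 1), 1.58 (floor of 50) and 1.21 (authors' values). That of -1.79 in the lower members was -1.43, -0.97, -1.81, -2.46, -1.07 and -0.99 in the same order. Members with STKO and TKO 2-fold apart numbered 11, and 9 (neqc), 2 (no background subtraction), 12 (quantile), 25 (floor of 1), 6 (floor of 50) and 4 (authors' values). No difference of a member changed sign, and with a floor of 50, 41 of the 52 lower members remained below 0. The cause of these changes was not tested. No paired analysis was possible because the labels give no replicate numbers, with 1 array a group. On every array of their dim side, 11 higher and 16 lower members were at the floor, so their differences are set in part by it.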

Other observations

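Among the 53 probes that separated WT from both knockouts but moved with ISD, 2 genes stood out by gap, which is how they were chosen. Both probes of Ifi202b, an interferon-inducible gene of the Ifi200 family on chromosome 1, were at the floor of 4.00 on all 4 knockout arrays, against 12.73 and 10.45 (WT ISD and mock) for the brighter probe and 12.37 and 9.23 (WT ISD and mock) for the other. One probe of Casp4, an inflammatory caspase on chromosome 9, had 9.22 and 8.59 (STKO ISD and mock) and 11.29 and 9.99 (TKO ISD and mock), against 4.00 on both WT arrays. The other 2 tested Casp4 probes were above the floor in WT, at 10.24 and 6.72 (ISD and mock) for the brighter and 6.71 and 4.96 (ISD and mock) for the other, and overlapped with the knockouts. Both genes were in the list of strain-variable genes, of which 10 probes were tested. Ctsc, a lysosomal protease, had 3 such probes, the brightest with 12.14 and 12.35 (STKO ISD and mock) and 13.03 and 12.58 (TKO ISD and mock), against 9.87 and 8.46 (WT ISD and mock). Vcan, the matrix proteoglycan versican, had 3 on the lower side. The 2 Actb probes in this set were at the floor in the knockouts, against 7.72 and 6.91 (WT ISD and mock) and 7.91 and 6.87 (WT ISD and mock).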
